A study of Mus musculus with 6 samples.

Results

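*Lrrk1*, *Tm9sf4*, *Eif2b3*, *Mrpl15*, *H13* and *Rnf220* are 6 genes in which at least 1 exon bin was used differently in hnRNP L deficient compared to wt fetal liver (FL) progenitors. An exon bin is a stretch of exon that belongs to one and the same set of transcripts, and its usage is its reads relative to the other bins of the gene. The 6 genes were taken from 38293 genes by symbol and Ensembl identifier, and hold 184 of 355320 bins. They were chosen by the measured usage changes of these bins in these libraries, so the usage values below describe them and test nothing. Of the 184 bins, 159 entered the fit with 10 or more reads on average, 25 were below this minimum, and 4 of those had 0 reads in every library. A bin is called where the p-value of diffSpliceDGE in edgeR, adjusted over all bins, is under 0.05. In the 6 genes 9 of the 159 bins were called, where 0.0288% of all 176996 tested bins were. The 4 higher ones stand beside 0.0186% of all bins called higher, and the 5 lower ones beside 0.0102% called lower. The calls rested on both hnRNP L deficient libraries, with 1 bin of the 6 genes called without replicate 2 (*Lrrk1* bin 46) and 0 without replicate 3, where the lone library was assumed to vary like the wt libraries. Of all 11441 units of bins, 0.271% held a called bin.

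Lin-cKit+ FL cells, a sorted fraction rich in blood stem and progenitor cells, came from C57BL/6 embryos at embryonic day 14.5, each library from a single embryo. One group of 3 was wt and the other group of 3, called hnRNP L deficient, was VavCre+hnRNP L fl/fl. In the latter both *Hnrnpl* alleles are floxed, and Cre under the Vav promoter removes them in the blood lineage. The study describes the wt libraries as fl/fl too, so both groups carry floxed alleles. Whether wt embryos carried Cre is not given in the sources used here. The mRNA libraries were stranded and paired-end. Exon bins cover wt replicates 1 to 3 and, of the hnRNP L deficient embryos, replicates 2 and 3, while gene counts cover all 6. The numbers of hnRNP L deficient replicates 2 and 3 share a prefix in the labels that no wt embryo has, so whatever the prefix stands for cannot be told apart from the genotype in the exon bins.

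hnRNP L is an RNA-binding protein that prefers CA-rich stretches and can repress or promote the inclusion of nearby exons. An intron that is kept, an exon with a polyadenylation site of its own, a shorter 3′ end or another promoter each leave a different trace in exon bins. The first gives reads on an otherwise silent stretch beside an exon, the second reads on an alternative exon with fewer on the exons after it, and the last 2 give a stretch at one end of the gene that moves as a whole. The bins alone do not show which exons a transcript joins, since junction reads were not analysed here.

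Libraries held 55952160 to 76157226 reads on genes and 102176927 to 145043938 on exon bins, where a read can count on several bins. Reads assigned to no gene made up 46.7% to 53.3% of the gene counts, and those assigned to no bin 31.7% to 37.4% of the bin counts. *Hnrnpl* had 528 to 552 CPM (the field's usual scaling of counts by normalized library size) in wt and 242 to 288 CPM in hnRNP L deficient libraries. *Kit*, which defines the sort, was present in every library at 325 to 656 CPM, with every hnRNP L deficient library below every wt library. The sorted population's 4 markers together had 1002 to 1374 CPM in wt and 818 to 931 CPM in hnRNP L deficient libraries. Of these 4, 2 were called lower at the gene level (edgeR, adjusted p under 0.05), *Kit* among them. For this and the marker counts below, 9.85% of all 14396 tested genes were called lower. Wt replicate 2 stood apart, with 7695 CPM over 5 granulocyte markers against 231 to 1416 CPM in the other libraries. Over 4 macrophage markers the wt libraries had 14.8, 80.4 and 31.9 CPM and the hnRNP L deficient libraries 2.58 to 6.4 CPM, with 2 of the 4 called lower. Hepatocyte markers summed to 104 to 222 CPM in wt and 20.1 to 68.2 CPM in hnRNP L deficient libraries (1 of 4 called lower), erythroid markers to 425 to 626 and 231 to 644 CPM (1 of 4 called lower), and megakaryocyte markers to 45 to 76.2 and 45.3 to 68 CPM. T, B and NK cell markers reached at most 1.4 CPM in any library.

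The sequences at the start of 4 intronic or extended bins with more reads in hnRNP L deficient libraries are shown first (*Tm9sf4* bin 17 was under the read minimum and *H13* bin 7 was not called), and were read from the GENCODE transcripts of GRCm38. In each of the first 4 lines the first 24 bases end a coding exon, and the capitals mark the next 2 bases, which in all 4 genes are the GT that follows the exon end of the spliced transcripts and that the transcript with the next bin reads through.
*Lrrk1* chr7:66342666-66342785, minus strand, bins 47 to 46: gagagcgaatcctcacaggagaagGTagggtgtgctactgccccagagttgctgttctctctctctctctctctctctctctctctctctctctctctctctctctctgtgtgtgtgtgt
*Tm9sf4* chr2:153191977-153192096, plus strand, bins 16 to 17: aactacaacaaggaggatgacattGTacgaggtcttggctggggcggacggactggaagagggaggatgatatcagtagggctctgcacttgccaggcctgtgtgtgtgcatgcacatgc
*Eif2b3* chr4:117070764-117070883, plus strand, bins 15 to 16: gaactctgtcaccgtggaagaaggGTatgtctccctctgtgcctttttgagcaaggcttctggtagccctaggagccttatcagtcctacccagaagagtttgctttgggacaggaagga
*H13* chr2:152681110-152681229, plus strand, bins 6 to 7: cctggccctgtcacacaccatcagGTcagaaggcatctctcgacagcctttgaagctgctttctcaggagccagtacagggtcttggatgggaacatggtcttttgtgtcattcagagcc

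**Figure D1:**
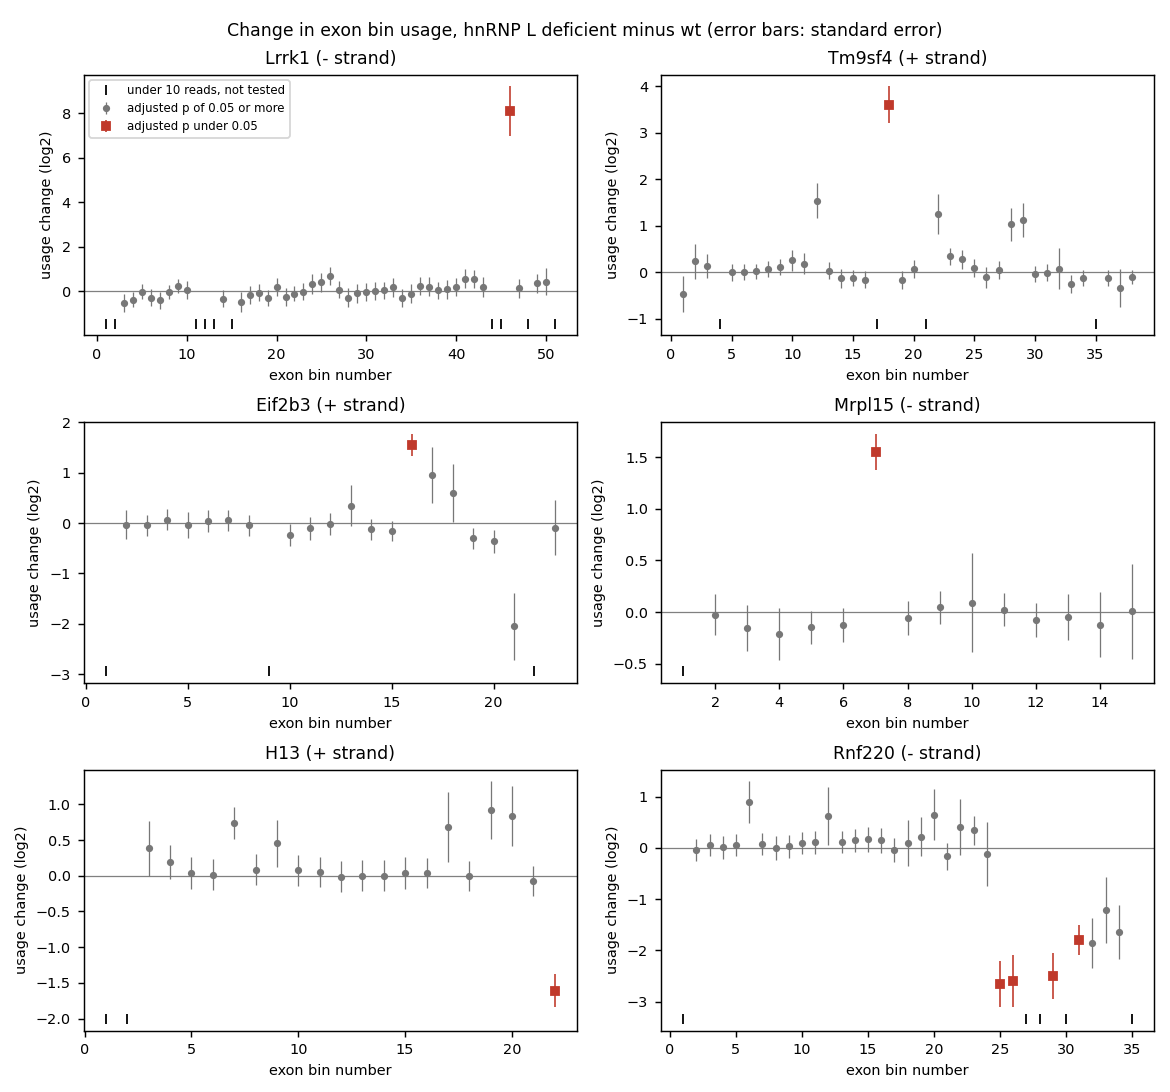
Change in usage of each tested exon bin (log2, hnRNP L deficient minus wt, with its standard error) by bin number in the 6 genes. Red squares are the 9 called bins, grey points the 150 others and ticks at the lower edge the bins under 10 reads. Among the tested bins, single ones stand out in *Lrrk1* (where the fitted value depends on 0 reads in wt), *Tm9sf4*, *Mrpl15* and *H13*. A run stands out in *Rnf220*, with 4 called bins, and in *Eif2b3* a run with 1 called bin.

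The shape of each change was read from the tested bins beside it. A change was termed a run where the next tested bin, called or not, had a usage change of the same sign of at least 0.5 on the log2 scale, and single otherwise. *Lrrk1* bin 46, *Tm9sf4* bin 18 and *Mrpl15* bin 7 were single and inside the gene, and *H13* bin 22 was single and the last bin of the gene. *Eif2b3* bins 16 to 18 were an internal run in which bin 16 alone was called. *Rnf220* bins 25 to 34 were a run of 7 tested bins that reached the 5′ end. Bins under the read minimum did not enter this rule. Among those, the adjoining *Lrrk1* bins 44 and 45 and *Tm9sf4* bin 17 were also above wt in both hnRNP L deficient libraries. In these 2 genes the change was therefore single among tested bins only. Over all called bins in units of a single gene there were 28 such changes in 27 genes, 17 single and 11 in runs. Of these, 15 were single internal bins with higher usage, 6 internal runs with higher usage, and 3 runs at a gene end with lower usage.

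*Lrrk1* (ENSMUSG00000015133, chr7:66226912-66388350, minus strand) encodes a large protein kinase of the Roco family, known for its part in bone resorption by osteoclasts. Its bin 46 (chr7:66342007-66342761) had 0 reads in each of the 3 wt libraries and 30 and 47 reads in hnRNP L deficient replicates 2 and 3. It lies in the intron after the coding exon of bin 47 and is annotated in a single transcript, *Lrrk1-206*, of the retained intron class. No wt library and both hnRNP L deficient ones thus had reads on it. The hnRNP L deficient libraries had 0.766% and 1.03% of the gene's bin reads on it. With 0 of the wt reads taken as up to 3 over the group, the share was at least 31.5-fold higher, for counting error alone.

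The stretch around *Lrrk1* bin 46 was low but not empty in the hnRNP L deficient libraries. Bin 45, next in the direction of transcription, had 7, 0 and 0 reads in wt and 14 and 19 in hnRNP L deficient libraries, and bin 44 had 0, 0 and 0 against 6 and 18, both under the read minimum. Bins 44 to 46 together are 1 contiguous stretch of intron (chr7:66340680-66342761), and all 3 held more reads in both hnRNP L deficient libraries than in any wt library. Per base, bin 46 reached 9.87% and 9.91% of the depth of exon bin 47 in the hnRNP L deficient libraries, bin 45 reached 10.3% and 8.98%, and bin 44 reached 1.51% and 2.89%. The exons on either side were not called. Bin 47 had 76, 55 and 56 reads in wt and 66 and 103 in hnRNP L deficient libraries (usage change 0.13, standard error 0.43), and bin 43 had 74, 50 and 45 against 60 and 101 (0.19, standard error 0.43). Per 100 reads on the exons before the intron (bins 47 and 49), the exons after it (bins 42 and 43) had 101, 87.6 and 90.8 reads in wt and 99.3 and 107 in hnRNP L deficient libraries, which overlap. At the ends, the first tested bin, bin 3 in the 3′ UTR, had a usage change of -0.54 (standard error 0.42) and the last, bin 50 in the 5′ UTR, of 0.41 (standard error 0.61).

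*Tm9sf4* (ENSMUSG00000068040, chr2:153161303-153210466, plus strand) encodes a multi-pass membrane protein of the endosomal TM9 family, known from work on phagocytosis and cell adhesion. Bin 18 (chr2:153192188-153193535) had 2, 6 and 15 reads in wt replicates 1 to 3 and 90 and 120 reads in hnRNP L deficient replicates 2 and 3. Its usage rose by 3.60 on the log2 scale (standard error 0.39), from 0.0548% ± 0.0387 (SD, n = 3) of the gene's bin reads in wt to 0.672% and 0.728% in the hnRNP L deficient libraries. Every wt library was below both hnRNP L deficient ones.

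Bins 17 and 18 of *Tm9sf4* continue directly from the coding exon of bin 16 into the intron, bin 17 in the retained intron transcripts *Tm9sf4-204* and *Tm9sf4-208* and bin 18 in *Tm9sf4-208* alone. Bin 17 (chr2:153192001-153192187) had 0 reads in every wt library and 15 and 32 in the hnRNP L deficient ones, under the read minimum. Per base, bin 17 reached 1.5% and 2.71% and bin 18 1.251% and 1.41% of the depth of exon bin 16 in the hnRNP L deficient libraries, against 0.0275%, 0.0981% and 0.159% for bin 18 in wt. The reads on the flanking exons did not separate the genotypes. Bin 16 had a usage change of -0.16 and bin 19, the next tested bin, of -0.17 (both with a standard error of 0.19), and the exons after the intron (bins 19 and 20) had 57.6 to 83.4 reads per 100 on bins 15 and 16 in wt and 72.4 and 73.1 in hnRNP L deficient libraries. The first bin of the gene had a usage change of -0.47 (standard error 0.39) and the last of -0.10 (standard error 0.15).

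In all, 4 other low bins of *Tm9sf4* that are annotated in noncoding transcripts alone were also above wt in both hnRNP L deficient libraries but were not called. Their usage changes ran from 1.03 (bin 28, standard error 0.35) to 1.54 (bin 12, standard error 0.38), with bins 22 and 29 in between. Bin 12, for example, had 19, 10 and 32 reads in wt and 60 and 73 in hnRNP L deficient libraries. These 4 were named after their values were seen, and 12.1% of all tested bins were above wt in this way. The remaining tested noncoding bins of the gene did not rise in this way. Bin 32 overlapped with wt (0.08, standard error 0.44), and bin 37 was below wt in both hnRNP L deficient libraries (-0.34, standard error 0.41). All noncoding bins of *Tm9sf4* together took 1.29%, 0.982% and 1.56% of the gene's bin reads in wt and 3.05% and 2.92% in hnRNP L deficient libraries.

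Bin 18 of *Tm9sf4* holds CA repeats, a kind of sequence that hnRNP L is known to bind. Binding was not tested, and the rest of the intron was not searched. The hexamers CACACA and ACACAC, counted with overlaps on the transcribed strand, occurred 24 times in bin 18. Of 11796 tested bins of 500 to 4000 bases, 46.9% held either hexamer and 1.7% held it 24 times or more. Among the 2240 of these in noncoding transcripts alone, as bin 18 is, the shares were 49.2% and 2.28%. The window of bin 18 with most matches is shown with the hexamers in capitals.
*Tm9sf4* chr2:153192797-153192916, plus strand, within bin 18: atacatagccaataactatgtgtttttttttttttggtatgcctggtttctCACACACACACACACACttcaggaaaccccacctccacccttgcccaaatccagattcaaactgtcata

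**Figure D2:**
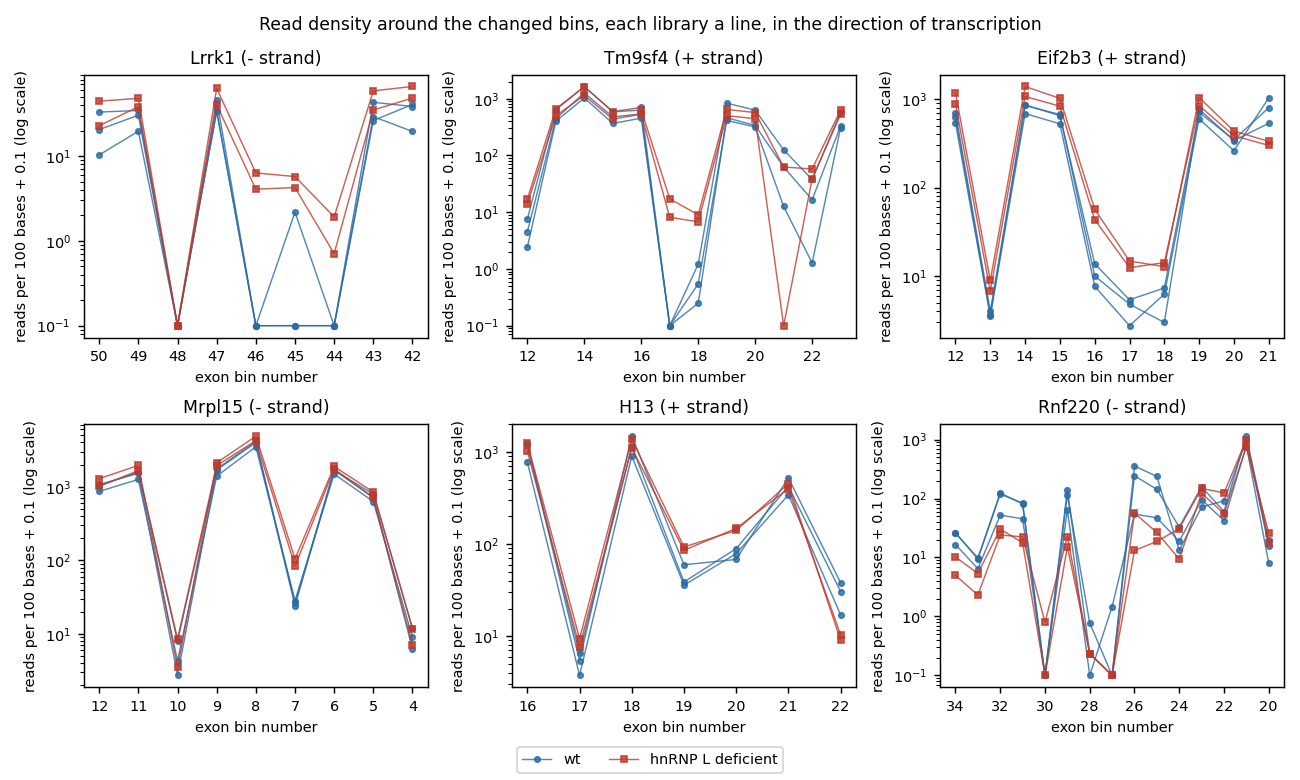
Reads per 100 bases (plus 0.1, log scale) on the bins around each changed bin, ordered in the direction of transcription, with 1 line for each of the 3 wt (blue) and 2 hnRNP L deficient (red) libraries. The intronic bins of *Lrrk1* and *Tm9sf4* leave the floor in the red lines, *Eif2b3* bin 16 and *Mrpl15* bin 7 rise between exons that were not called, and the red lines drop in *H13* bin 22 and *Rnf220* bins 34 to 25.

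*Eif2b3* (ENSMUSG00000028683, chr4:117019402-117087306, plus strand) encodes the gamma subunit of eIF2B, the exchange factor that recharges eIF2 with GTP so that translation can start again. Bin 16 (chr4:117070788-117073260) had 245, 187 and 338 reads in wt and 1071 and 1406 reads in hnRNP L deficient libraries. Its usage rose by 1.55 on the log2 scale (standard error 0.22), from 3.15% ± 0.478 (SD, n = 3) of the gene's bin reads in wt to 9.01% and 9.26%. In reads, not adjusted for depth or gene level, the lowest hnRNP L deficient library had over 3 times the highest wt library. In share of the gene's bin reads the gap was smaller, 9.01% against 3.69%.

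Bin 16 of *Eif2b3* follows the coding exon of bin 15 without a gap and is annotated in *Eif2b3-202*, where it is the end of the last exon. In that transcript the coding sequence runs 133 bases into the bin, to chr4:117070920, and the rest of the bin is 3′ UTR. The next bins were not called. Bin 17 (chr4:117073961-117074300) had 16, 9 and 18 reads against 42 and 50 (usage change 0.95, standard error 0.55), and bin 18 had 8, 17 and 20 against 39 and 35 (0.60, standard error 0.57), with shares that overlapped between the genotypes. The coding exons that *Eif2b3-202*, ending in bin 16, lacks had fewer reads relative to the exons before it. Per 100 reads on bins 14 and 15, bins 19 and 20 had 80.2, 78.2 and 78.3 reads in wt and 71.5 and 67.8 in hnRNP L deficient libraries. Bin 15 had a usage change of -0.16 (standard error 0.21). The first tested bin, bin 2 in the 5′ UTR, had -0.04 (standard error 0.29) and the last, bin 23, -0.09 (standard error 0.55). Bin 21, a UTR bin of 3 bases near the other 3′ end, had 16, 31 and 24 reads in wt and 9 and 10 in hnRNP L deficient libraries (-2.05, standard error 0.66, not called), and was picked out for its value.

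Bins 16 and 17 of *Eif2b3* also held CA hexamers, 13 in bin 16 and 16 in bin 17. Of the 11796 tested bins of 500 to 4000 bases, 3.15% held 13 or more. Bin 16, with 2473 bases, is among the longer of these, and bin 17, with 340 bases, is not among them. A stretch of bin 16 and one of bin 17 with most matches follow, hexamers in capitals.
*Eif2b3* chr4:117071800-117071829, plus strand, within bin 16: aggCACACACACAtatatgtACACACAaat
*Eif2b3* chr4:117074168-117074287, plus strand, within bin 17: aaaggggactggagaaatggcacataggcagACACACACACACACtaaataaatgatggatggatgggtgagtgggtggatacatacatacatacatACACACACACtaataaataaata

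*Mrpl15* (ENSMUSG00000033845, chr1:4773206-4785739, minus strand) encodes a protein of the large subunit of the mitochondrial ribosome. Bin 7 (chr1:4781221-4782301) had 262, 305 and 282 reads in wt and 906 and 1134 reads in hnRNP L deficient libraries. Its usage rose by 1.55 on the log2 scale (standard error 0.18), from 2.13% ± 0.368 (SD, n = 3) of the gene's bin reads in wt to 5.98% and 6.43%. The wt libraries lay close together and far below both hnRNP L deficient ones.

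Bin 7 of *Mrpl15* is an exon of its own, the last one of *Mrpl15-205*, and no other transcript used for the bins holds it. Its first 78 bases are annotated as coding and are shown here as the last coding bases of this transcript. The annotated stop codon follows them and is not printed.
*Mrpl15* chr1:4782224-4782301, minus strand, coding part of bin 7: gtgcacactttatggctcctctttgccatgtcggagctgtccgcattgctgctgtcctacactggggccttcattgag
The bin next to it in the direction of transcription, bin 6, had a usage change of -0.13 and the bin before it, bin 8, of -0.06 (both with a standard error of 0.16). Per 100 reads on the exons before bin 7 (bins 9 and 11), the exons after it (bins 5 and 6) had 113, 122 and 117 reads in wt and 103 and 104 in hnRNP L deficient libraries. As in *Eif2b3*, the hnRNP L deficient libraries were below all wt libraries in this ratio. Among all tested bins, the share of the gene's reads did not overlap between the genotypes in 20.4%, so that such a separation is common in these 5 libraries. The first tested bin, bin 2 in the 3′ UTR, had a usage change of -0.03 (standard error 0.20), and the last, bin 15 in the 5′ UTR, of 0.01 (standard error 0.46). Bin 7 held 3 CA hexamers.

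**Figure D3:**
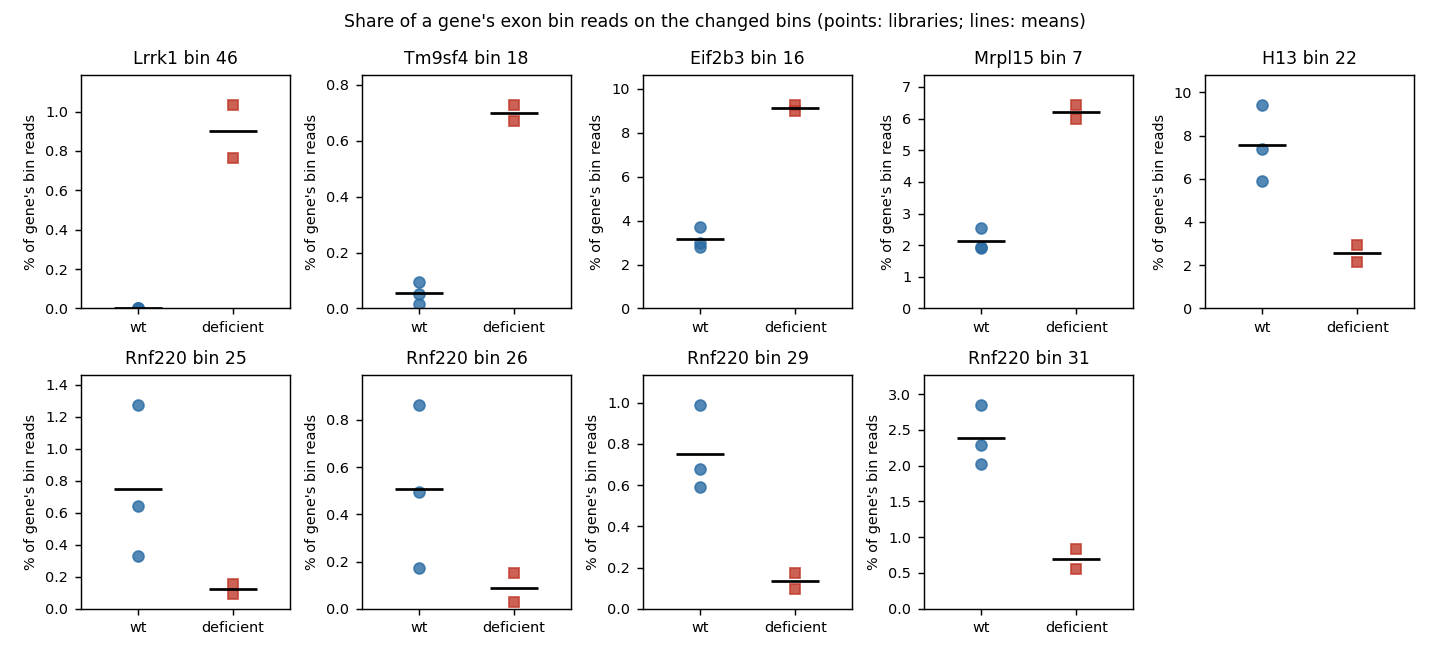
Percent of a gene's exon bin reads on each of the 9 called bins, with 1 point per library (3 wt, 2 hnRNP L deficient) and the group mean as a line. The groups do not overlap in any panel.

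*H13* (ENSMUSG00000019188, chr2:152669461-152708670, plus strand) encodes signal peptide peptidase, which cuts leftover signal peptides inside the membrane of the endoplasmic reticulum, and is known as an imprinted gene with alternative polyadenylation. Bin 22 (chr2:152705037-152708670), the last bin of the gene, had 617, 1381 and 1108 reads in wt and 373 and 325 reads in hnRNP L deficient libraries. Its usage fell by 1.61 on the log2 scale (standard error 0.23), from 7.56% ± 1.76 (SD, n = 3) of the gene's bin reads in wt to 2.96% and 2.14%. Both hnRNP L deficient libraries were below every wt library, of which replicate 1 was lowest.

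Bin 22 of *H13* is the distal 3′ UTR, which *H13-204* has and *H13-202*, ending with bin 21, lacks. Per 100 reads on bin 21, bin 22 had 43.2, 63.3 and 62.8 reads in wt and 22.3 and 17.2 in hnRNP L deficient libraries. Bin 21 itself, with the end of the coding sequence, had 1428, 2180 and 1765 reads in wt and 1669 and 1889 in hnRNP L deficient libraries (usage change -0.08, standard error 0.21). Of the uncalled bins, a pair of low coding bins before the last exon was above wt in both hnRNP L deficient libraries. Bin 19 had 48, 80 and 52 reads against 115 and 125 (0.92, standard error 0.40) and bin 20 had 52, 45 and 59 against 98 and 93 (0.83, standard error 0.42). Bin 7, the retained intron of *H13-206* whose start is printed above, had 373, 417 and 655 reads against 730 and 907 (0.74, standard error 0.23). Per base it reached 1.87%, 1.78% and 2.59% of the depth of exon bin 6 in wt and 3.65% and 3.18% in hnRNP L deficient libraries. Bins 7, 19 and 20 were picked out after their values were seen. The first tested bin, bin 3 in the 5′ UTR, had a usage change of 0.39 (standard error 0.39).

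*Mcts2*, an imprinted retrogene that lies within an intron of *H13* on the same strand (chr2:152687035-152687946) and overlaps none of its bins, was the one tested gene that overlapped any of the 6. Its mean was 13.9 CPM in wt and 23.6 CPM in hnRNP L deficient libraries (log2 difference 0.76, standard error 0.16, adjusted p = 0.025 by edgeR), with every hnRNP L deficient library above every wt library. *H13-203*, which ends before *Mcts2* in bin 9, had 109, 162 and 148 reads on that bin in wt and 206 and 189 in hnRNP L deficient libraries (usage change 0.45, standard error 0.33, not called).

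*Rnf220* (ENSMUSG00000028677, chr4:117271463-117497052, minus strand) encodes a RING finger ubiquitin ligase that works with ZC4H2 in the developing nervous system. It held 4 called bins, all lower, at the 5′ end of the gene. Bin 31 (chr4:117489589-117490234), with the start of the coding sequence of *Rnf220-201*, had 293, 541 and 521 reads in wt and 144 and 114 reads in hnRNP L deficient libraries. Its usage fell by 1.80 on the log2 scale (standard error 0.30). Bin 29 had 86, 188 and 154 reads against 30 and 20 (-2.51, standard error 0.45), bin 26 had 25, 164 and 112 against 26 and 6 (-2.60, standard error 0.50), and bin 25 had 48, 242 and 146 against 27 and 19 (-2.66, standard error 0.45). In share of the gene's bin reads the groups did not overlap in these 4 bins, though in reads hnRNP L deficient replicate 2 and wt replicate 1 were alike in bin 26.

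The other tested bins of that end had negative usage changes without a call. Bin 32 had 50, 114 and 119 reads in wt and 23 and 29 in hnRNP L deficient libraries (-1.86, standard error 0.48), bin 33 had 23, 34 and 35 against 8 and 19 (-1.22, standard error 0.64), and bin 34, the last tested one, had 44, 70 and 69 against 13 and 27 (-1.64, standard error 0.53). Between bins 29 and 31, bin 30, where *Rnf220-202* starts (chr4:117375314-117375457), had 1 read in all 5 libraries. The run thus went from bin 34 down to bin 25 (chr4:117296132-117296233). Bin 24, next in the direction of transcription, had 20, 14 and 35 reads against 10 and 33 (-0.11, standard error 0.62), and bin 13, a coding bin of most transcripts, had 996, 1031 and 1508 against 1168 and 1382 (0.11, standard error 0.22). The first tested bin, bin 2 at the 3′ end, had -0.04 (standard error 0.21).

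Over the whole run, bins 25 to 34 had 16.2, 37.9 and 22.1 reads per 100 reads on bins 13 to 21 in wt and 6.87 and 4.91 in hnRNP L deficient libraries. The wt libraries differed among themselves by more than 2-fold in this ratio, wt replicate 2 being highest. The macrophage markers of wt replicates 1 to 3 (14.8, 80.4 and 31.9 CPM) and of hnRNP L deficient replicates 2 and 3 (6.21 and 6.40 CPM) had the same order of libraries, except for the last pair, and the granulocyte markers were highest in the same wt library. Their part in the result was not tested. Without wt replicate 2 the usage change was -1.65 in bin 31, -2.25 in bin 29, -2.02 in bin 25 and -1.98 in bin 26, and bin 26 was then not called. Without wt replicate 3 neither bin 26 (-2.66) nor bin 29 (-2.59) was called. The 2 called bins nearest to the threshold and the first beyond it were all in this run, with adjusted p-values of 0.0026 (bin 29), 0.014 (bin 26) and 0.64 (bin 32).

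**Figure D4:**
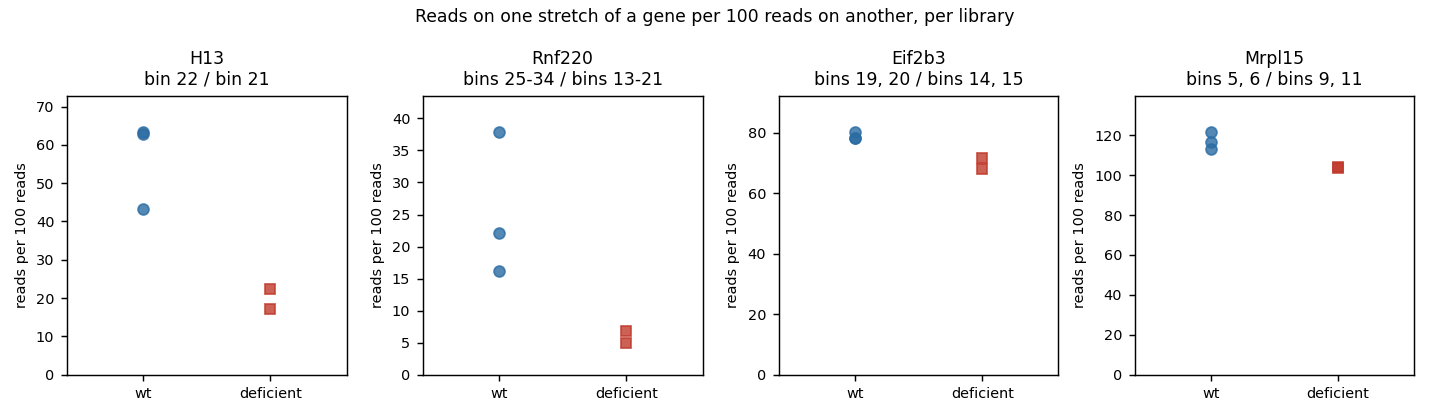
Reads on one stretch of a gene per 100 reads on another, with 1 point per library (3 wt, 2 hnRNP L deficient), for the distal 3′ UTR of *H13*, the 5′ run of *Rnf220* and the exons after the changed bin of *Eif2b3* and *Mrpl15*. Both hnRNP L deficient libraries lie below every wt library in all 4 panels, by the widest relative margin in *H13* and *Rnf220*. In these genes the counted stretch holds called bins, so that the separation follows from the choice of the genes. The matching exon ratios of *Lrrk1* and *Tm9sf4*, which overlapped between the genotypes, are not drawn.

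The bins were also looked at by the kind of transcript they belong to. Of the 4 called higher, *Lrrk1* bin 46 and *Tm9sf4* bin 18 were in noncoding transcripts alone. *Eif2b3* bin 16 and *Mrpl15* bin 7 were coding bins. Among the 149 tested bins of the 6 genes with a usable position, 22 were annotated in noncoding transcripts alone, such as retained introns, and 18 of these 22 had a positive usage change, with a median of 0.61. Over all 9848 tested bins of that kind 60.0% were positive and the median was 0.098, and of these bins 10 were called higher. The 22 include called bins and come from genes chosen by these usage values, so that setting them beside all bins tests nothing. The 110 coding bins of the 6 genes had a median of 0.001 and the 17 UTR bins of -0.12, against 0.019 and 0.013 over all bins of those kinds. The share of all reads on noncoding bins did not separate the genotypes, with 1.4%, 1.51% and 1.7% in wt and 1.56% and 1.55% in hnRNP L deficient libraries. CA hexamers were in 22 of the 149 bins and in 4 of the 9 called ones (*Tm9sf4* bin 18, *Eif2b3* bin 16, *Mrpl15* bin 7 and *H13* bin 22 with a single match). All 4 are over 1000 bases long, and 46.9% of tested bins of 500 to 4000 bases held a hexamer, against 9.09% of tested bins of any length. *Lrrk1* bin 46 and the 4 bins of *Rnf220* had no match within the bin. Intron sequence beside the bins was not searched, so CA repeats there would be missed.

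Of the 150 uncalled bins of the 6 genes, 142 had a usage change smaller than 1 on the log2 scale and 8 a larger one. Both hnRNP L deficient libraries were above all wt libraries in 25 of the 159 tested bins and below in 26, where this held for 12.1% and 8.22% of all tested bins. With the looser rule of an unadjusted p-value under 0.01 and a 2-fold change, 13 bins of the 6 genes passed, where 0.246% of all tested bins did.

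At the level of whole genes, *Eif2b3* was the one of the 6 in which the genotypes did not overlap. The 3 wt embryos had 77.1, 49.2 and 58.9 CPM, the 3 hnRNP L deficient embryos 93.4, 91.0 and 99.2 CPM (log2 difference 0.62, standard error 0.16). It was called higher, as were 9.32% of the 14396 genes tested, with 9.85% called lower and 19.2% in all. Genotypes did not overlap in 45.5% of the tested genes. Over all genes the calls rested on the full set of libraries, with 2759 genes called, 5 without wt replicate 3 and 7 to 17 without 1 of the hnRNP L deficient replicates, which bears on every gene-level call named here. *Eif2b3* was not called without wt replicate 3 (0.58) or without hnRNP L deficient replicate 1 (0.63), 2 (0.66) or 3 (0.59). *Lrrk1* had 31.5, 36.1 and 27.9 CPM in wt and 36.1, 33.8 and 33.8 CPM in hnRNP L deficient libraries (0.12, standard error 0.11). *Tm9sf4* had 103 to 114 and 108 to 115 CPM (0.05, standard error 0.071), and *Mrpl15* 108 to 136 and 128 to 131 CPM (0.14, standard error 0.10). *H13* had 93.6 to 125 CPM in wt and 94.8 to 96.1 CPM in hnRNP L deficient libraries (-0.18, standard error 0.11), and *Rnf220* had 126 to 155 and 127 to 137 CPM (-0.15, standard error 0.098). None of these 5 was called, and in each the genotypes overlapped. Without wt replicate 1, *Mrpl15* (0.26) and *Rnf220* (-0.23) were called. Fewer expressing cells and less RNA per cell cannot be told apart in such bulk samples.

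**Figure D5:**
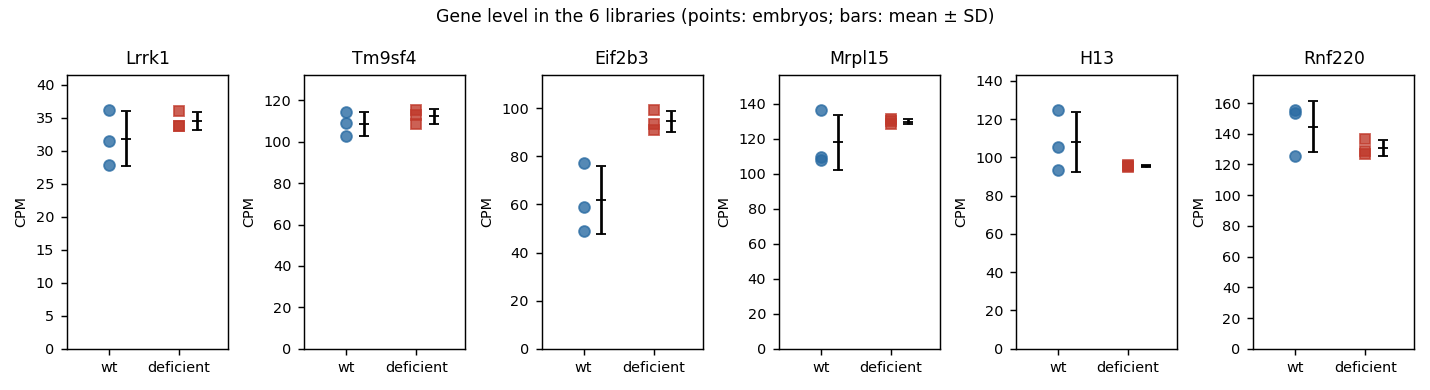
Gene level in CPM of the 6 genes, with 1 point per embryo (3 wt, 3 hnRNP L deficient) and the mean ± SD beside the points. *Eif2b3* is higher in all 3 hnRNP L deficient libraries (91.0 to 99.2 CPM) than in any wt library, and the groups overlap in the other 5 genes.

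Of the partners of *Eif2b3*, all 4 other subunits of eIF2B were called higher at the gene level by edgeR, where 9.32% of all tested genes were. *Eif2b1*, the alpha subunit, rose from a mean of 121 to 180 CPM (log2 difference 0.57, standard error 0.14, adjusted p = 0.032), *Eif2b2*, the beta subunit, from 69.1 to 92.8 CPM (0.43, standard error 0.079, adjusted p = 0.019), *Eif2b4*, the delta subunit, from 75.8 to 104 CPM (0.46, standard error 0.073, adjusted p = 0.015) and *Eif2b5*, the catalytic epsilon subunit, from 159 to 217 CPM (0.45, standard error 0.094, adjusted p = 0.025). The 3 genes of eIF2 itself were not called, *Eif2s1* with a log2 fold change of 0.36, *Eif2s2* with 0.24 and *Eif2s3x* with 0.47. The 7 genes had a median of 0.45, where the median of all 14396 genes was -0.026, and all 7 were positive under every setting run. The calls rested on the full set of libraries. Without wt replicate 3, or without hnRNP L deficient replicate 1, 2 or 3, 0 of the 7 were called, and 7 without wt replicate 1.

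Of 47 other genes of the large mitochondrial ribosomal subunit, 46 were tested, and 25 were called higher and 0 lower by edgeR, where 9.32% and 9.85% of all tested genes were. At an unadjusted p-value under 0.05, and by DESeq2, 0 were lower as well. Their median log2 fold change was 0.31, against 0.14 in *Mrpl15* itself, and 44 of the 46 were positive (39, of which 20 called, without TMM factors). The called ones were *Mrpl1*, *Mrpl2*, *Mrpl3*, *Mrpl4*, *Mrpl9*, *Mrpl10*, *Mrpl11*, *Mrpl12*, *Mrpl17*, *Mrpl19*, *Mrpl20*, *Mrpl30*, *Mrpl32*, *Mrpl34*, *Mrpl36*, *Mrpl37*, *Mrpl38*, *Mrpl43*, *Mrpl45*, *Mrpl46*, *Mrpl47*, *Mrpl49*, *Mrpl52*, *Mrpl54* and *Mrpl55*, with log2 fold changes from 0.25 to 0.69. The highest were *Mrpl9* (from 110 to 178 CPM) and *Mrpl17* (from 67.3 to 108 CPM). Leaving out wt replicate 3 or any 1 of hnRNP L deficient replicates 1, 2 and 3 again left 0 of them called.

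Of the 11 tested relatives of the other 4 genes, 1 was called, where 19.2% of all tested genes were. Of the signal peptide peptidase-like genes, *Sppl3* fell from 91.0 to 70.4 CPM (log2 fold change -0.37, standard error 0.072, edgeR adjusted p = 0.021), a call that was lost without wt replicate 3 or without hnRNP L deficient replicate 1, 2 or 3. *Sppl2a* and *Sppl2b* had -0.02 and -0.22 without a call, and *Sppl2c* had too few reads. *Tm9sf1*, *Tm9sf2* and *Tm9sf3* had 0.19, -0.05 and -0.03. *Lrrk2*, another kinase of the Roco family, had 6.87 CPM in wt and 2.12 CPM in hnRNP L deficient libraries (-1.69, standard error 0.88, edgeR adjusted p = 0.21). Without wt replicate 2, the library with the highest granulocyte and macrophage markers, the log2 fold change of *Lrrk2* was -0.29. *Zc4h2*, *Usp7* and *Ctnnb1*, known as partners of RNF220, had 0.10, 0.14 and 0.03 without a call. Exon usage in these families was not called in any of 751 tested bins by diffSpliceDGE, where 7 had an unadjusted p-value under 0.05, limma's diffSplice called 1 and the model of DEXSeq fitted in DESeq2 called 3.

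Of the 11 nearest tested genes on either side of the 6, 2 were called, a share near the 19.2% of all tested genes. *Tspyl3*, 11904 bases beyond the 3′ end of *Tm9sf4*, fell from 12.1 to 6.98 CPM (log2 fold change -0.79, standard error 0.14, edgeR adjusted p = 0.017), and *Btbd19*, 31913 bases beyond the 3′ end of *Eif2b3*, rose from 12.02 to 20.65 CPM (0.78, standard error 0.16, edgeR adjusted p = 0.022). Over the 6 libraries, the gene with the most similar profile of log2(CPM + 0.1) among 11618 others was *Actb* for *Lrrk1*, *Cluap1* for *Tm9sf4*, *1110002L01Rik* for *Eif2b3*, *Slc38a1* for *Mrpl15*, *Naxd* for *H13* and *R3hdm2* for *Rnf220*, with root mean square differences between 0.014 and 0.043.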

How the data were processed

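Reads were aligned by the authors with TopHat2 2.0.10 (GRCm38, both per the submitters' processing notes). HTSeq gave the gene values and DEXSeq's Python script the bin values, both deposited as raw counts. The Ensembl release and counting options are not given in the sources used here. For hnRNP L deficient replicate 1 exon bins are not analysed here.

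Bins averaging 10 or more reads were fitted with diffSpliceDGE of edgeR 4.0.16 (TMM factors, robust quasi-likelihood), and genes kept by filterByExpr with edgeR's quasi-likelihood test, with Benjamini-Hochberg adjustment over all bins or genes. Standard errors were derived from each log2 value and its F statistic (the log2 value over the root of F). Relative counts between parts of a gene are quotients of reads. The steps were run on simulated counts with the same spread for every feature, and the outcome is not given here. Such counts do not have the spread of these libraries, so they say little about the calls in low bins.

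Bin positions were rebuilt from GENCODE vM21 (GRCm38), leaving out transcripts numbered 182500 or higher. The number of bins then equalled the deposited one in 31138 of 34765 units (89.6%) and in all 6 genes. In *Rnf220* the read depth matched the rebuilt bins from bin 12 on, so no position was used before it. Motif shares are over the 131618 tested bins with a position.

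The members and gene lists were chosen with earlier results of these data known. Named were every called bin, its tested neighbours, the first and last tested bin, called relatives and at most 3 others, the nearest tested genes, and the most similar gene over 6 libraries (mean of at least 1 CPM, pseudocount 0.1). P-values measure the spread between single embryos. An exact test of 3 libraries against 2 cannot reach a p-value under 0.05 and was not used. Depth (at most 0.0536 CPM for 3 reads on genes) limits the precision of low bins, and intervals and floors cover counting error only. Alternatives were other tools, normalizations, read minimums, call rules and each library left out.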

Additional observations from a re-analysis of the deposited data

How the results depend on the processing

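Over all units, 51 bins were called, 219 with limma's diffSplice, 560 with the model of DEXSeq in DESeq2, 436 with an unadjusted p-value under 0.01 and a 2-fold change, and 3 to 156 with each library left out. In the 6 genes 9 bins were called, 7 to 13 under the other settings and 0 to 10 with a library left out (1 without hnRNP L deficient replicate 2, 0 without replicate 3, each of which leaves 1 library in that group, assumed to vary like wt). Every called bin of the 6 genes kept its direction under each setting that could be fitted. The ranges with a library left out were 8.004 to 8.28 (*Lrrk1*, called each time, but under the read minimum without hnRNP L deficient replicate 3), 3.199 to 4.29 (*Tm9sf4*), 1.45 to 1.68 (*Eif2b3*), 1.46 to 1.701 (*Mrpl15*), -1.86 to -1.39 (*H13*), and for *Rnf220* -3.07 to -2.02 (bin 25), -4.16 to -1.83 (bin 26), -2.96 to -2.14 (bin 29) and -2.11 to -1.54 (bin 31). Limma's diffSplice did not call *Rnf220* bins 25 (-2.41) and 26 (-2.67), nor did the model of DEXSeq call bin 26 (-2.61). *Lrrk1* bin 46 had 5.94 with limma's diffSplice, 7.42 with the model of DEXSeq and 6.01 relative to the uncalled stable bins of its gene. With 0 reads in wt, the size of its change depends on the method, and the narrow range above does not measure it. Leaving out hnRNP L deficient replicate 2 or 3 ended the call of each of the 8 other bins. Genes called numbered 2759, 4130 with DESeq2 and 5 to 4791 with a library left out. Left-out libraries moved *Eif2b3* between 0.48 and 0.81, *Mrpl15* between 0.081 and 0.26, *Rnf220* between -0.23 and -0.092, and the called relatives of *Eif2b3* from 0 to 7 and of *Mrpl15* from 0 to 32. Without TMM factors *Tm9sf4* had a gene-level change of -0.025. The causes were not tested. No paired analysis was possible because the replicate numbers were given in order of the samples and pair no embryos.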
